A study of Drosophila melanogaster with 12 samples.

Results

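The genes described here are the odorant, gustatory and ionotropic receptor genes of Drosophila melanogaster in sorted brain cells. They were taken by name as every gene symbol of the count table built as Or, Gr or Ir with a number and a letter. The rule gave 177 of 16272 genes, with 58 Or, 55 Gr and 64 Ir genes. The odorant co-receptor Orco carries another kind of symbol, so it is not a member and is described beside them. Gr10a, Gr64b, Gr64c, Gr64d, Gr64e, Ir54a, Ir56e and Or10a were not analysed here.

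RNA was sequenced in bulk from 4 populations of Canton-S adults aged 3 days, with 3 libraries each. They were T4 neurons (columnar motion-pathway cells), Pm2 neurons (cells of the proximal medulla), glia sorted with a Repo driver and neurons sorted with an Elav driver, the last meant to hold neurons of all types. A Gal4 line marked each population with the nuclear reporter UAS-Red Stinger, brains were dissociated and the labelled cells were sorted by fluorescence. Driver line and population therefore cannot be told apart. The labels do not say whether libraries came from separate animals, so p-values measure the spread between libraries. Of the 4 comparisons below, 3 share the neuron libraries. In bulk samples, fewer cells of a type and less RNA per cell cannot be told apart.

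Odorant receptors form ligand-gated channels in which a tuning subunit pairs with Orco. Ionotropic receptors descend from ionotropic glutamate receptors, and tuning members work with co-receptors such as Ir8a, Ir25a, Ir76b and Ir93a. Gustatory receptors include families for sugars, bitter compounds and carbon dioxide, and several work only as combinations. All these genes are best known from sensory neurons of the antenna, maxillary palp and taste organs, not from visual neurons or glia. Some have roles in sensing temperature and humidity, and Gr43a is known as a fructose sensor in the brain.

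Library totals ran from 35012892 to 57811629 counts, and levels are counts per 1000000 counts of the adjusted library total (CPM, explained under processing). The populations carried their defining markers. All 5 glial markers tested were called higher in glia than in neurons and all 5 neuronal markers lower. The T4 markers were called higher in T4 for 4 of 4 genes against neurons. Against Pm2, 3 of the 4 were called higher in T4, namely Sox102F, SoxN and acj6. In Pm2, 1 of the T4 markers was called higher than in neurons and 3 lower. Of the 2 Pm2 markers, Gad1 was called higher in Pm2 than in neurons and VGAT was not called. The 5 neuronal markers summed to 230 to 287 CPM in glia and 10400 to 10600 CPM in neurons.

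Receptor genes were sparsely counted. A count in all 3 libraries was found for 38 receptor genes in T4 (21.5%), 37 in Pm2 (20.9%), 21 in glia (11.9%) and 45 in neurons (25.4%). Over the whole table the same shares were 55.6%, 55.9%, 53.5% and 61.0%, in the same order. No count in any of the 12 libraries was found for 36 receptor genes (20.3%), namely 13 Or, 12 Gr and 11 Ir genes, against 10% of the whole table. Gr28a and Gr28b, the second known for a role in warmth sensing, were among those 36. So were Or45b, Or46a and Or83a, which share 100% of their exon bases with another gene, and Gr93d, which shares 88%. How reads of such bases were counted is not known, so a 0 there may not mean that RNA was absent. For a gene without a count in a population, 3 counts over the 3 libraries were taken as the limit. This is 0.0194 CPM in T4, 0.0186 in Pm2, 0.0221 in glia and 0.0239 in neurons. Lower levels could be missed at this depth. These limits cover counting error only.

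**Figure D1:**
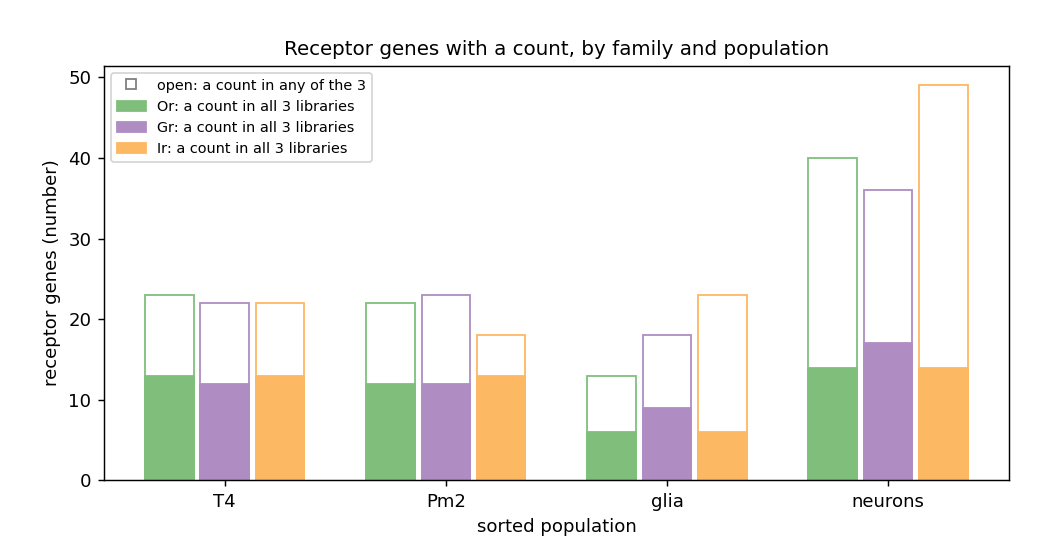
Number of receptor genes with a count in each sorted population, by family; filled bars give genes counted in all 3 libraries and open bars those counted in any of the 3. In neurons the open bars reach 40 Or, 36 Gr and 49 Ir genes, while the filled bars reach 14, 17 and 14.

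Many low counts were not repeated between libraries. Of the 141 receptor genes with any count, 52 were counted in 1 library only, and 34 of those were in the neuron library of column 2. That library held counts for 111 receptor genes, against 55 and 70 in the other neuron libraries, and it also had the most genes with a count of all 12 libraries (12742). In any neuron library 125 receptor genes had a count, but 77 without column 2. In glia, 26 of the 47 receptor genes that reached 10 counts in 1 library were at 0 in another. The same held for 15 of 53 in T4, 17 of 53 in Pm2 and 18 of 55 in neurons. As shares these were 55.3% in glia, 28.3% in T4, 32.1% in Pm2 and 32.7% in neurons. Over the whole table they were 15.5%, 10.1%, 7.92% and 8.27% in the same order. Such counts, as for Ir31a with 0, 0 and 117 counts in glia or Ir51a with 0, 127 and 0 counts in T4, describe 1 library and not a population. At the other end, Gr32a, Gr39a, Gr66a, Ir62a, Ir68a, Ir76a, Or43b, Or45a and Or71a were counted in all 12 libraries.

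A filter of at least 10 counts in at least 3 libraries left 54 receptor genes for testing, 18 of each family. This was 30.5% of the members, against 64.7% of the table. Because a member could pass through 1 population alone, the genes that passed are not a fair sample of the family. The 87 receptor genes with some count that did not pass reached at most 115 counts in a library (Ir7g in glia replicate 3), and 59 of them had under 20 counts in all 12 libraries together.

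Levels were low per length of exon. Among the genes tested, the median receptor gene stood at 0.47 CPM per kb in T4, 0.373 in Pm2, 0.287 in glia and 0.221 in neurons. For all genes tested it was 7.58, 7.38, 7.84 and 7.98 CPM per kb in the same order. No more than 5 of the 54 receptor genes exceeded that all-gene median in any population. A pair of genes held 40.6% to 55.5% of all receptor counts in each T4, Pm2 and neuron library, Or45a and Ir76a in each case. In glia the leading pair held 67.4% to 67.7%, with Ir62a first in every library.

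**Figure D2:**
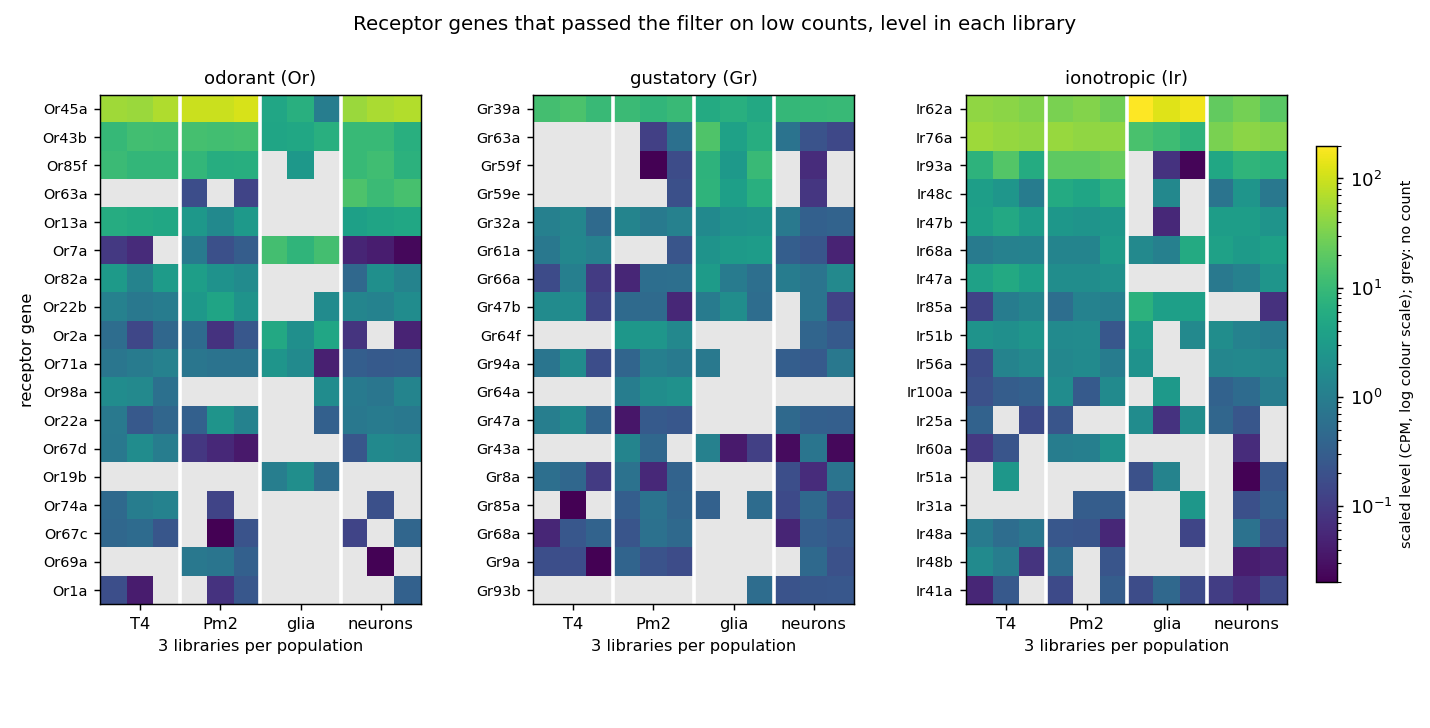
Level of the 54 receptor genes that passed the filter in each of the 12 libraries, on a logarithmic colour scale in CPM, with grey for no count. Or45a, Ir62a and Ir76a are bright across T4, Pm2 and neurons, while glia show a bright Ir62a and many grey cells among the Or genes.

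Co-receptors were largely at or near 0. Ir8a, needed by acid-sensing ionotropic receptors, had 1 count in all 12 libraries. Ir76b, a co-receptor for amines and taste, had 0, 6 and 0 counts in T4, none in Pm2 or glia and 18, 32 and 0 in neurons, and did not pass the filter. Ir25a, the most widely used of the family, had 20, 0 and 8 counts in T4, 13, 0 and 0 in Pm2, 72, 4 and 80 in glia and 16, 11 and 0 in neurons. Each neuronal population had an Ir25a library at 0, the glial libraries spread from 4 to 80, and edgeR's quasi-likelihood test called none of the 4 comparisons (adjusted p of at least 0.265).

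Ir93a, which acts with Ir25a in cool, warm and humidity sensing, was the exception among the co-receptors. It lies on chromosome 3R from 20851709 to 20859945 (BDGP6, minus strand). It had 417, 839 and 291 counts in T4, 1170, 1061 and 1257 in Pm2, 0, 4 and 1 in glia and 183, 394 and 295 in neurons. All Pm2 libraries lay above all neuron libraries, glia were near 0, and T4 overlapped the neurons. Ir93a averaged 21.6 ± 1.85 CPM in Pm2 and 6.81 ± 1.81 in neurons (SD, n = 3 each), which edgeR gave as a log2 difference of 1.66 ± 0.463 (SE; adjusted p = 0.0158). Without Pm2 replicate 3 the adjusted p was 0.0527 and without neuron column 1 it was 0.0645. In glia it was at 0.0334 ± 0.0398 CPM, a log2 difference from neurons of -7.46 ± 0.694 (edgeR adjusted p = 2.26e-06). T4 did not pass against neurons (edgeR adjusted p = 0.4) or against Pm2 (edgeR adjusted p = 0.0851). Of the other members known for temperature and humidity, Ir40a had 1 count in all and Ir21a at most 11 in a library. Ir68a, a moist-air receptor, had 50, 56 and 61 counts in T4, 73, 67 and 169 in Pm2, 61, 58 and 249 in glia and 146, 144 and 150 in neurons, and was not called.

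Orco was counted in the mixed neurons. It had 19, 1 and 35 counts in T4, 0, 1 and 0 in Pm2, 0, 0 and 15 in glia and 220, 293 and 200 in neurons. Every neuron library lay above the other 9. Orco averaged 0.353 ± 0.336 CPM in T4, 0.0064 in Pm2, 0.114 in glia and 5.64 ± 0.664 in neurons. It was lower than in neurons in Pm2 (edgeR adjusted p = 0.00357) and in glia (edgeR adjusted p = 0.00792), while T4 did not pass (edgeR adjusted p = 0.0677). T4 was called higher than Pm2 by 5.33 ± 1.82 on the log2 scale (edgeR adjusted p = 0.0402). In that comparison 1 T4 library had 1 count, as did 1 Pm2 library. The 7 markers of olfactory sensilla, Orco included, summed to 3.28 to 6.31 CPM in T4, 10.4 to 12.4 in Pm2, 0.871 to 6.74 in glia and 11.7 to 15.2 in neurons. In neurons 4 of the 7 had a count, and the odorant-binding proteins lush, Obp28a and Obp19d were at 0.

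Among the tuning odorant receptors, Or63a set the mixed neurons apart. This receptor, known from larval olfactory neurons, lies on chromosome 3L from 2961534 to 2963788 (BDGP6, plus strand). It had no count in the 3 T4 libraries, 10, 0 and 7 counts in Pm2, none in glia, and 585, 504 and 563 counts in neurons. The neuron libraries stood far above all 9 others. Or63a passed the filter only with its neuron counts. Being high in neurons was therefore a condition of its being tested. In neurons it averaged 13.3 ± 2.4 CPM or 7.75 CPM per kb, the fifth highest receptor gene there. Against neurons it was at least 685-fold lower in T4 (edgeR adjusted p = 0.00149) and at least 604-fold lower in glia (edgeR adjusted p = 0.000203), taking 3 counts over the 3 libraries as the limit. In Pm2 the log2 difference was -6.97 ± 1.03 (edgeR adjusted p = 0.00178). Or63a was the only receptor gene called in all 4 comparisons. Its call between T4 and Pm2 rested on 17 counts and was lost without any T4 replicate, or without Pm2 replicate 1 or 3, with adjusted p up to 0.0952, and with limma (adjusted p = 0.0652).

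Or45a, a receptor described from larvae, took the most counts of any receptor gene in every T4, Pm2 and neuron library, although per kb Ir76a stood above it in T4. It lies on chromosome 2R from 9345349 to 9348863 (BDGP6, plus strand). It had 2928, 2440 and 3361 counts in T4, 5495, 5014 and 5968 in Pm2, 190, 349 and 44 in glia and 1877, 2964 and 2800 in neurons. All glial libraries lay below all others, and all Pm2 libraries above the T4 and neuron libraries. Glia averaged 4.15 ± 2.91 CPM and neurons 60.4 ± 9.95, a log2 difference of -3.86 ± 0.5 (edgeR adjusted p = 3.46e-05). The Pm2 mean of 102 ± 9.2 CPM was not called against neurons (log2 0.76 ± 0.442, edgeR adjusted p = 0.209), nor T4 against Pm2 (edgeR adjusted p = 0.159). Both of these passed when Or45a was tested in the 6 libraries compared alone (edgeR adjusted p = 0.00101 for Pm2 against neurons and 0.000476 for T4 against Pm2).

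Or13a, Or82a and Or67d were counted in neuronal populations and had no count in any glial library. Or13a, an antennal receptor, had 324, 259 and 241 counts in T4, 152, 83 and 148 in Pm2 and 144, 207 and 197 in neurons, and was at least 197-fold lower in glia than in neurons (edgeR adjusted p = 7.11e-07). T4 was higher than Pm2 by 1.17 ± 0.375 on the log2 scale (edgeR adjusted p = 0.0363), a call lost without any 1 of the 6 libraries and with no filter, with adjusted p up to 0.12. Or82a, an antennal receptor, had 169, 59 and 159 counts in T4, 195, 116 and 90 in Pm2 and 17, 93 and 50 in neurons, and was at least 55.2-fold lower in glia (edgeR adjusted p = 9.95e-05). Or67d, the receptor for the male pheromone cis-vaccenyl acetate, had 44, 86 and 50 counts in T4, 5, 3 and 2 in Pm2 and 9, 75 and 55 in neurons. Here Pm2 lay below every T4 and neuron library, with log2 differences of 4.21 ± 0.956 for T4 against Pm2 (edgeR adjusted p = 0.00772) and -4.05 ± 0.95 for Pm2 against neurons (edgeR adjusted p = 0.00937). In glia Or67d was at least 48.1-fold lower than in neurons (edgeR adjusted p = 0.000287).

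Or7a, a receptor of antennal basiconic sensilla tuned to leaf odours, ran the other way. It lies on the X chromosome from 8164266 to 8165708 (BDGP6, minus strand). It had 5, 3 and 0 counts in T4, 49, 10 and 16 in Pm2, 519, 427 and 550 in glia and 2, 2 and 1 in neurons. Glia stood above all others and Pm2 above both T4 and neurons, without overlap. It averaged 11.2 ± 2.55 CPM in glia and 0.0399 ± 0.0142 in neurons, a log2 difference of 8.05 ± 0.968 (edgeR adjusted p = 1.89e-05). Pm2 differed from neurons by 3.43 ± 0.87 on the log2 scale (edgeR adjusted p = 0.01). T4 differed from Pm2 by -3.09 ± 0.823 (edgeR adjusted p = 0.0127), a call lost without Pm2 replicate 1 (adjusted p = 0.0581).

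The antennal receptors Or2a and Or19b were also higher in glia. Or2a had 30, 7 and 22 counts in T4, 28, 4 and 13 in Pm2, 207, 101 and 205 in glia and 3, 0 and 2 in neurons, with a log2 difference of 6.48 ± 1.16 for glia against neurons (edgeR adjusted p = 0.000417). Or19b had 41, 99 and 24 counts in glia and none elsewhere, at least 48.6-fold higher than in neurons (edgeR adjusted p = 0.0048). Or19b passed the filter through its glial counts alone, so being high in glia was a condition of its being tested. Or19a is a near-identical copy of Or19b, and the counting may have divided reads between them. It had 16 counts, all in 2 glial libraries. Or22a and Or22b, neighbours on the same strand, were not called. Or22b had 155, 229 and 121 counts in Pm2. Whether the counting divided reads between these neighbours was not tested.

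Or69a and Or98a, antennal receptors, separated the single neuron types. Or69a had no count in T4, 45, 38 and 18 counts in Pm2, none in glia and 0, 1 and 0 in neurons. It passed the filter through its Pm2 counts alone, so being high in Pm2 was a condition of its being tested. Pm2 stood above the rest without overlap, and T4 was at least 32-fold lower than Pm2 (edgeR adjusted p = 0.00635). Against neurons the ratio for Pm2 was 78.6 (95% counting interval 13.8 to 3140; edgeR adjusted p = 0.0136), a call lost without neuron column 3 (edgeR adjusted p = 0.0518) and with DESeq2 (adjusted p = 0.105). Or98a had 96, 74 and 30 counts in T4, none in Pm2, 0, 0 and 77 in glia and 34, 35 and 51 in neurons. It was at least 69.2-fold higher in T4 than in Pm2 (edgeR adjusted p = 0.0247) and at least 51.9-fold lower in Pm2 than in neurons (edgeR adjusted p = 0.0293). Both Or98a calls were lost without any 1 Pm2 replicate, with adjusted p up to 0.072, and the second also without any 1 neuron column.

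Or43b and Or85f were counted in every library of the neuronal populations. Or43b, an antennal receptor, had 535, 602 and 591 counts in T4, 742, 646 and 698 in Pm2, 185, 247 and 297 in glia and 374, 467 and 270 in neurons. Pm2 at 12.9 ± 0.442 CPM lay above neurons at 8.8 ± 1.87 without overlap, which did not pass (log2 0.55 ± 0.235, edgeR adjusted p = 0.0904) except among the 6 libraries compared alone (adjusted p = 0.033). Or43b was called lower in glia than in neurons (log2 -0.71 ± 0.237, edgeR adjusted p = 0.0196), although 1 glial library lay above 1 neuron library. That call was lost without neuron column 1 or 2 or glia replicate 1 or 2 (adjusted p up to 0.0646) and among the 6 libraries alone (0.0973). Or85f had 582, 441 and 448 counts in T4, 506, 328 and 345 in Pm2, 0, 139 and 0 in glia and 382, 558 and 300 in neurons. Its glial level came from replicate 2, and its call as lower in glia (edgeR adjusted p = 0.0328) was lost without any 1 neuron column, with adjusted p up to 0.0683, and among the 6 libraries alone (0.129).

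**Figure D3:**
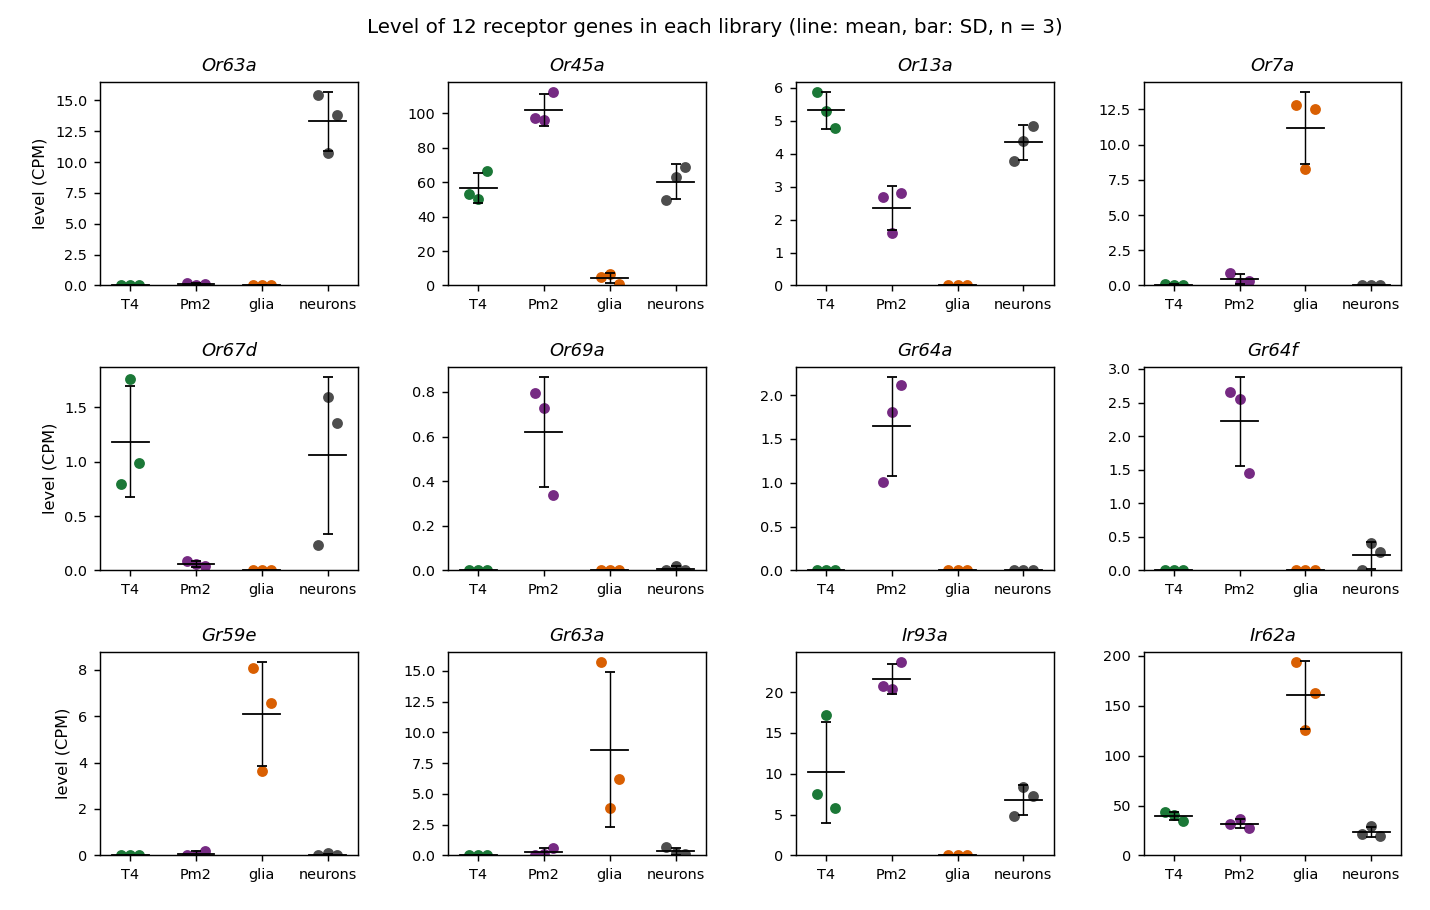
Level in CPM of 12 receptor genes in each library, with points for libraries, a line for the mean and a bar for the SD (n = 3). Or63a is high in neurons at 13.3 ± 2.4 CPM and at or near 0 elsewhere, Gr64a, Gr64f and Or69a are high in Pm2, and Or7a, Gr59e, Gr63a and Ir62a are high in glia.

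Of the gustatory receptors, 2 of the sugar family were high in Pm2. Gr64a had no count in T4, 57, 94 and 112 counts in Pm2, and none in glia or neurons. It was the only receptor gene with any count in Pm2 and none in the other 3 populations. Gr64f, a partner used by many sugar receptors, had no count in T4, 150, 133 and 77 counts in Pm2, none in glia and 0, 19 and 11 in neurons. All Pm2 libraries lay above the other 9 for both genes. Against Pm2, T4 was at least 84.5-fold lower for Gr64a (edgeR adjusted p = 0.00558) and at least 114-fold lower for Gr64f (edgeR adjusted p = 0.00668). Pm2 was at least 68.9-fold higher than neurons for Gr64a (edgeR adjusted p = 0.00632). Gr64f needed its Pm2 counts to pass the filter, since its neuron counts alone fell short of it. Its presence in Pm2 was thus a condition of its being tested. Gr64a passed the filter through its Pm2 counts alone. Being high in Pm2 was therefore a condition of Gr64a being tested against T4 and against neurons. For Gr64f, Pm2 at 2.22 ± 0.666 CPM was not called against neurons at 0.225 ± 0.205 (edgeR adjusted p = 0.0911), but it passed with limma (adjusted p = 0.0025) and among the 6 libraries compared alone (0.0104). T4 was called at least 11.6-fold lower than neurons for Gr64f (edgeR adjusted p = 0.0424), which was lost without any 1 T4 replicate or neuron column 2 or 3 and with limma, with adjusted p up to 0.101. Both genes belong to one cluster on chromosome 3L, from 4026769 to 4028600 for Gr64a and from 4035799 to 4037575 for Gr64f, both on the plus strand.

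The remaining members of the sugar family moved elsewhere or were sparse. Gr61a, a sugar receptor, had 44, 69 and 58 counts in T4, 0, 0 and 12 in Pm2, 93, 155 and 143 in glia and 12, 11 and 2 in neurons, each population apart from the next except Pm2 and neurons. Glia were higher than neurons by 3.82 ± 1.26 on the log2 scale (edgeR adjusted p = 0.0189), which was lost without neuron column 3 (adjusted p = 0.0644). T4 was higher than Pm2 by 3.85 ± 1.29 (edgeR adjusted p = 0.0366), which was lost without any 1 T4 replicate or Pm2 replicate 1 or 2, with adjusted p up to 0.0849. Gr43a had no count in T4, 71, 23 and 0 counts in Pm2, 47, 2 and 5 in glia and 1, 34 and 1 in neurons, and was not called. Gr5a, the trehalose receptor, had at most 17 counts in a library and did not pass the filter.

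The carbon dioxide receptor is a pair of Gr21a and Gr63a, and only one of them was counted in glia. Gr63a had no count in T4, 0, 6 and 32 counts in Pm2, 637, 199 and 271 in glia and 25, 10 and 6 in neurons. Glia lay above the other 9 libraries, with a spread of 8.59 ± 6.3 CPM, against 0.339 ± 0.278 in neurons (log2 4.66 ± 1.33, edgeR adjusted p = 0.0116). Gr21a had 1 count in 12 libraries, in neuron column 2. The calls of Gr63a as lower in T4 than in neurons (edgeR adjusted p = 0.0357) and than in Pm2 (edgeR adjusted p = 0.0338) rested on few counts. The first was lost without any 1 T4 replicate or neuron column (adjusted p up to 0.0919), the second without any 1 T4 replicate or Pm2 replicate 3 (up to 0.122). The second was also lost with limma (adjusted p = 0.115) and with the replicate block (edgeR adjusted p = 0.0702).

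Gr59e and Gr59f, neighbours 131 bases apart on opposite strands of chromosome 2R, were high in glia together. Gr59e had 327, 189 and 288 counts in glia, none in T4, 0, 0 and 10 in Pm2 and 0, 4 and 0 in neurons. Gr59f had 316, 153 and 455 counts in glia, none in T4, 0, 1 and 9 in Pm2 and 0, 3 and 0 in neurons. For both, every glial library stood above the other 9. Glia exceeded neurons by 7.54 ± 1.73 on the log2 scale for Gr59e (edgeR adjusted p = 0.00365). For Gr59f the ratio was 285 (95% counting interval 97.1 to 1380; edgeR adjusted p = 0.0013). Gr59f reached 10 counts in the 3 glial libraries alone, and Gr59e would not have passed the filter without its glial counts. Being high in glia was therefore a condition of both being tested.

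Of the receptors commonly linked to bitter taste, Gr39a was the most counted. It had 696, 729 and 529 counts in T4, 604, 450 and 545 in Pm2, 222, 351 and 228 in glia and 351, 443 and 409 in neurons. Glia averaged 5.82 ± 0.85 CPM and neurons 9.57 ± 0.431, without overlap once scaled (log2 -0.72 ± 0.211, edgeR adjusted p = 0.0105). Gr32a, known from bitter taste and male courtship, was higher in glia at 2.05 ± 0.39 CPM than in neurons at 0.517 ± 0.282 (log2 1.98 ± 0.596, edgeR adjusted p = 0.0116). Gr66a was counted in all 12 libraries, with 3 to 128 counts, and not called. Gr33a and Gr89a, usually found with Gr66a in bitter neurons, had 8 counts and 1 count in all. Gr85a had 0, 1 and 0 counts in T4 and 18, 35 and 21 in Pm2, a ratio of 0.0141 (95% counting interval 0.000353 to 0.0813; edgeR adjusted p = 0.0194). This was lost without T4 replicate 1 or 3, with adjusted p up to 0.066. The other gustatory calls were for genes at no count in glia, Gr47a, Gr68a, Gr8a, Gr9a and Gr64f, which were at least 9.32-fold to 17.1-fold lower there than in neurons. For Gr9a and Gr64f 1 neuron library was at 0 too.

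Ir62a, linked to calcium taste, was the receptor gene of highest level per kb in glia. It lies on chromosome 3L from 1529439 to 1531259 (BDGP6, minus strand). It had 2381, 1973 and 1752 counts in T4, 1776, 1911 and 1464 in Pm2, 7867, 6490 and 7133 in glia and 821, 1381 and 783 in neurons. All glial libraries exceeded the other 9. Glia averaged 161 ± 34.5 CPM (88.3 CPM per kb) and neurons 23.4 ± 5.26, a log2 difference of 2.78 ± 0.212 (edgeR adjusted p = 4.42e-07). Ir62a made up 62.5% of receptor CPM in glia. T4 was also higher than neurons, at 39.5 ± 4.39 CPM (log2 0.75 ± 0.201, edgeR adjusted p = 0.0201). This call was lost without T4 replicate 1 or 2 or neuron column 1 or 3, with adjusted p up to 0.0823.

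Ir76a, an antennal receptor for amines that works with Ir25a and Ir76b, had 2854, 2307 and 2178 counts in T4, 2732, 2290 and 2260 in Pm2, 572, 601 and 345 in glia and 1196, 1893 and 1476 in neurons. Glia lay below all other libraries. Glia averaged 11.2 ± 3.16 CPM against 36 ± 4.35 in neurons (log2 -1.68 ± 0.199, edgeR adjusted p = 1.62e-05). Of the 10 antennal ionotropic receptors listed, Ir76a alone was called in a comparison, and 3 passed the filter. It lies on chromosome 3L from 19799278 to 19803427 (BDGP6, plus strand).

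Ir47a and the neighbouring Ir47b, annotated as a pseudogene that shares 413 exon bases with it, were counted in neuronal populations. Ir47a had 212, 265 and 185 counts in T4, 105, 96 and 113 in Pm2, none in glia and 31, 54 and 100 in neurons. Ir47b had 207, 249 and 164 counts in T4, 149, 123 and 141 in Pm2, 0, 3 and 0 in glia and 128, 158 and 95 in neurons. Glia lay below the other 9 libraries for both. Ir47a was at least 66.8-fold lower in glia than in neurons (edgeR adjusted p = 1.5e-05), and for Ir47b the ratio was 0.00728 (95% counting interval 0.00149 to 0.0214; edgeR adjusted p = 2.1e-05). Reads of the shared bases cannot be assigned to one of them.

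Ir85a and Ir60a were higher in single populations than in the mixed neurons. Ir85a had 7, 46 and 65 counts in T4, 31, 61 and 57 in Pm2, 305, 190 and 164 in glia and 0, 0 and 3 in neurons. Every other library lay above every neuron library. The ratios to neurons were 32 in T4 (95% counting interval 10.7 to 158; edgeR adjusted p = 0.0132), 38.7 in Pm2 (13 to 190; edgeR adjusted p = 0.00635) and 203 in glia (69.2 to 987; edgeR adjusted p = 0.000282). Ir60a had 5, 11 and 0 counts in T4, 55, 56 and 115 in Pm2, none in glia and 0, 3 and 0 in neurons. It passed the filter only with its Pm2 counts, so being high in Pm2 was a condition of its being tested. The ratio of Pm2 to neurons was 58.7 (95% counting interval 19.8 to 287; edgeR adjusted p = 0.0242), a call lost without Pm2 replicate 3 or neuron column 1 or 3, with adjusted p up to 0.0772.

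Each comparison called receptor genes in both directions. For T4 against neurons, 2 were higher and 3 lower of 54 (9.26%), where 23.2% of 10528 genes were called (8.67% higher, 14.5% lower). The 5 became 11 with DESeq2, 10 with limma and 2 to 3 with 1 library left out, whichever it was. For Pm2 against neurons, 6 were higher and 3 lower (16.7%), where 35.6% of all genes were called (15.5% higher, 20.1% lower). These 9 became 14 among the 6 libraries alone and 5 without Pm2 replicate 3. Gr64a and Or69a fell under the filter without that replicate, so part of this drop is genes not tested. For glia against neurons, 10 were higher and 18 lower (51.9%), where 68.7% of all genes were called (30.9% higher, 37.8% lower). For T4 against Pm2, 4 were higher and 7 lower (20.4%), where 36.4% of all genes were called (18.0% higher, 18.4% lower). These 11 became 19 among the 6 libraries alone, and 4 without Pm2 replicate 1, 6 without any other 1 library except T4 replicate 2, and 8 without that one. Without any 1 Pm2 replicate, Gr64a and Or69a were again not tested. Levels of the members were lower than those of the table, as given above, and the part of level in these shares was not tested.

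The median log2 difference of the 54 members was 0.27 for T4 against neurons, 0.36 for Pm2 against neurons, -0.73 for glia against neurons and -0.09 for T4 against Pm2. With genes without a count in 1 population set at their bound, and those under the limit in both left out, the medians were 0.35, 0.4, -0.72 and -0.19 in that order. Over all genes tested the medians were -0.06, -0.08, -0.17 and 0.0 in that order. By family, 3 Or, 5 Gr and 2 Ir genes were higher in glia than in neurons, while 8 Or, 6 Gr and 4 Ir genes were lower. The Or genes lower in glia were Or13a, Or45a, Or82a, Or63a, Or67d, Or43b, Or85f and Or67c, the last lost with DESeq2, limma and 5 of the 6 omissions of a library (adjusted p up to 0.112). In all, 33 of the 54 were called in at least 1 comparison and 21 in none.

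**Figure D4:**
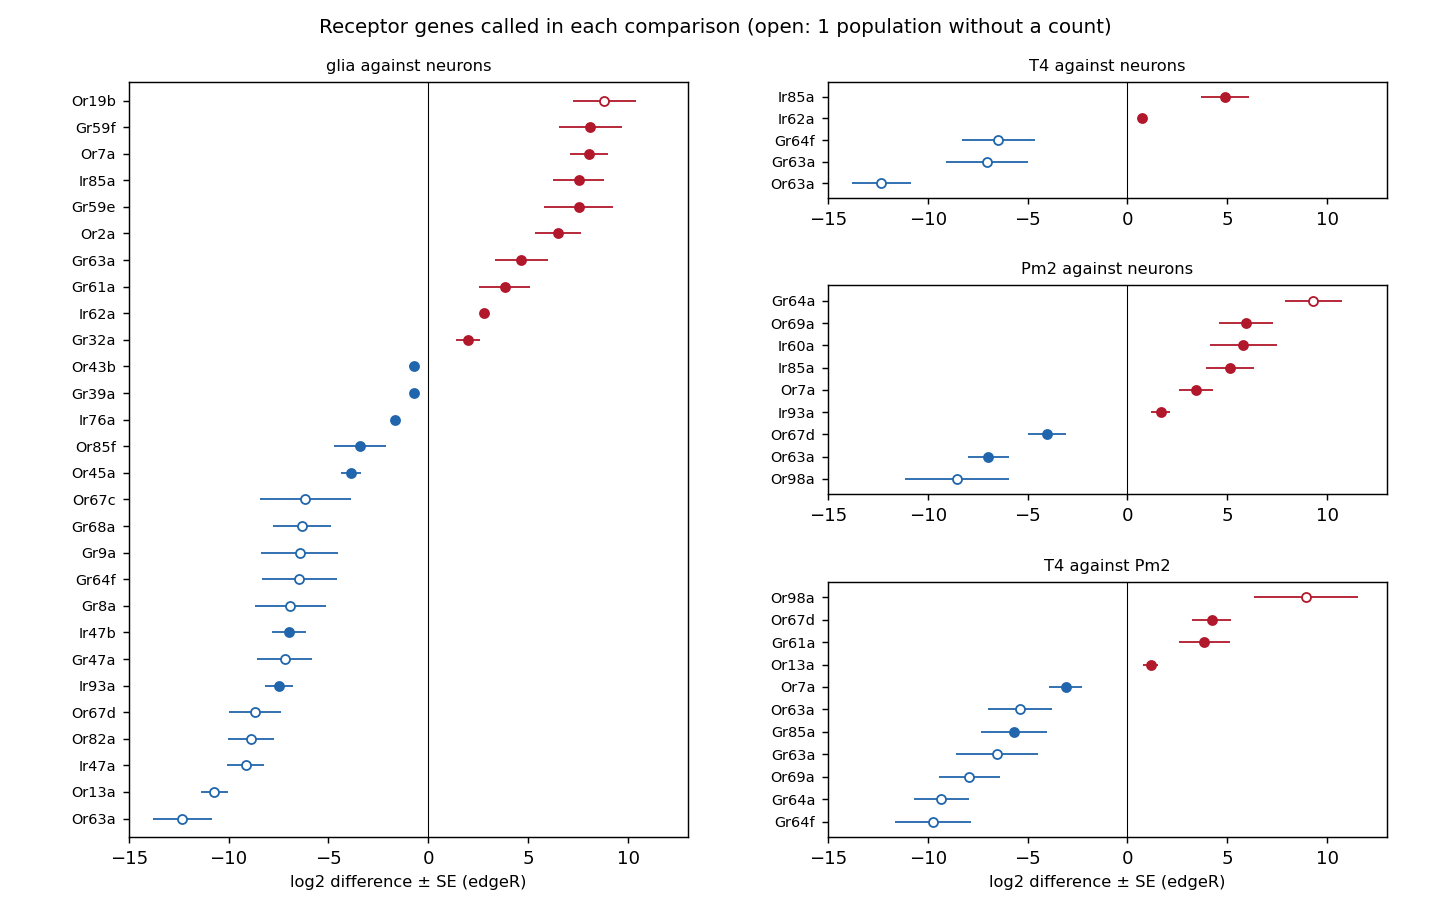
Fitted log2 difference and its SE from edgeR for each receptor gene called, by comparison, with the first named population over the second and open points where 1 population had no count. Of 28 genes called between glia and neurons, 10 lie right of 0 and 18 left; fitted values of open points depend on the model and are no bound.

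Most receptor genes lie close to, within or across other genes, and the libraries were made with a kit that does not mark strand. In the Ensembl annotation, 24 of 177 shared exon bases with another gene, 21 lay inside another gene without sharing exons, 95 had another gene within 1 kb and 37 had none. Of the 54 tested, these places held 9, 15, 25 and 5 genes. Genes inside another gene made up 52.1% of receptor CPM in T4, 57.9% in Pm2, 68.7% in glia and 50% in neurons, and those sharing exons 30.4%, 24.9%, 9.46% and 25.2%. The 37 with no other gene within 1 kb made up 2.14%, 1.36%, 0.299% and 1.99%. All 10 receptor genes of highest overall level had such a neighbour, 2 with shared exons, 3 inside another gene and 5 within 1 kb. Reads from an intron or end of the other gene could be counted under the receptor, and their share was not tested. Reads in shared exon bases could also have been left uncounted, which was not tested.

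The receptor genes inside another gene can be set beside their hosts, here for a few chosen after their values were seen. Or45a lies in introns of CG13954, which was at 171 CPM in T4, 232 in Pm2, 5.71 in glia and 108 in neurons, and of CG13739, at 38.4, 109, 2.94 and 89.5 CPM. Ir47a, Ir47b and Gr47a lie in introns of SLO2, a sodium-activated potassium channel gene, at 524 CPM in T4, 458 in Pm2, 6.44 in glia and 371 in neurons. Ir60a lies within nord, at 7.53 CPM in T4, 369 in Pm2, 0.995 in glia and 14 in neurons. Or98a lies within CG34353, at 272 CPM in T4, 0.842 in Pm2, 3.7 in glia and 223 in neurons. Ir48c, at 2.34 CPM in T4, 5.91 in Pm2, 0.484 in glia and 1.3 in neurons, lies within ths, an FGF ligand gene, at 183, 953, 4.54 and 266 CPM. In each of these, the population of highest mean and that of lowest mean were the same for the receptor gene and its host. Over all 17 tested receptor genes inside another gene, which gave 18 pairs with 16 hosts, both were the same in 12 pairs and not in 6. The 6 were Gr39a with Mondo, Gr94a with p53, Gr9a with CG15312, Ir51b with row, Ir56a with 5-HT1A and Or1a with CG3777.

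Counted over the called differences, 10 receptor genes inside another gene gave 13 pairs of a receptor call and its host's call. The host was called in the same direction in 12 pairs. The 13 pairs held 9 distinct hosts, with SLO2 beside 3 receptor genes, and 9 of them came from glia against neurons, where 68.7% of all genes were called and 37.8% were lower. The exception was Gr39a, lower in glia than in neurons, within Mondo, a sugar-responsive transcription factor gene, which was higher (143 CPM in glia, 76.5 in neurons; edgeR adjusted p = 0.00106). Ir62a was higher in glia by 2.78 on the log2 scale while its host Iml1, a nutrient-signalling gene on the same strand, was higher by 0.7 (314 CPM in glia, 193 in neurons; edgeR adjusted p = 0.000193). For 8 receptor genes that shared exons, 15 pairs held 6 in the same direction, 4 in the opposite direction and 5 in which the partner was not called. Without Ir47a and Ir47b as partners of each other, 13 pairs remained, 4 of them in the same direction. Ir85a shares exon bases with Pif1A and Pif1B, and in T4 it was higher than in neurons where both were lower. Gr64f was lower in T4 than in Pm2 where its partner CG11593 was higher, at 104 CPM in T4 and 74.7 in Pm2.

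**Figure D5:**
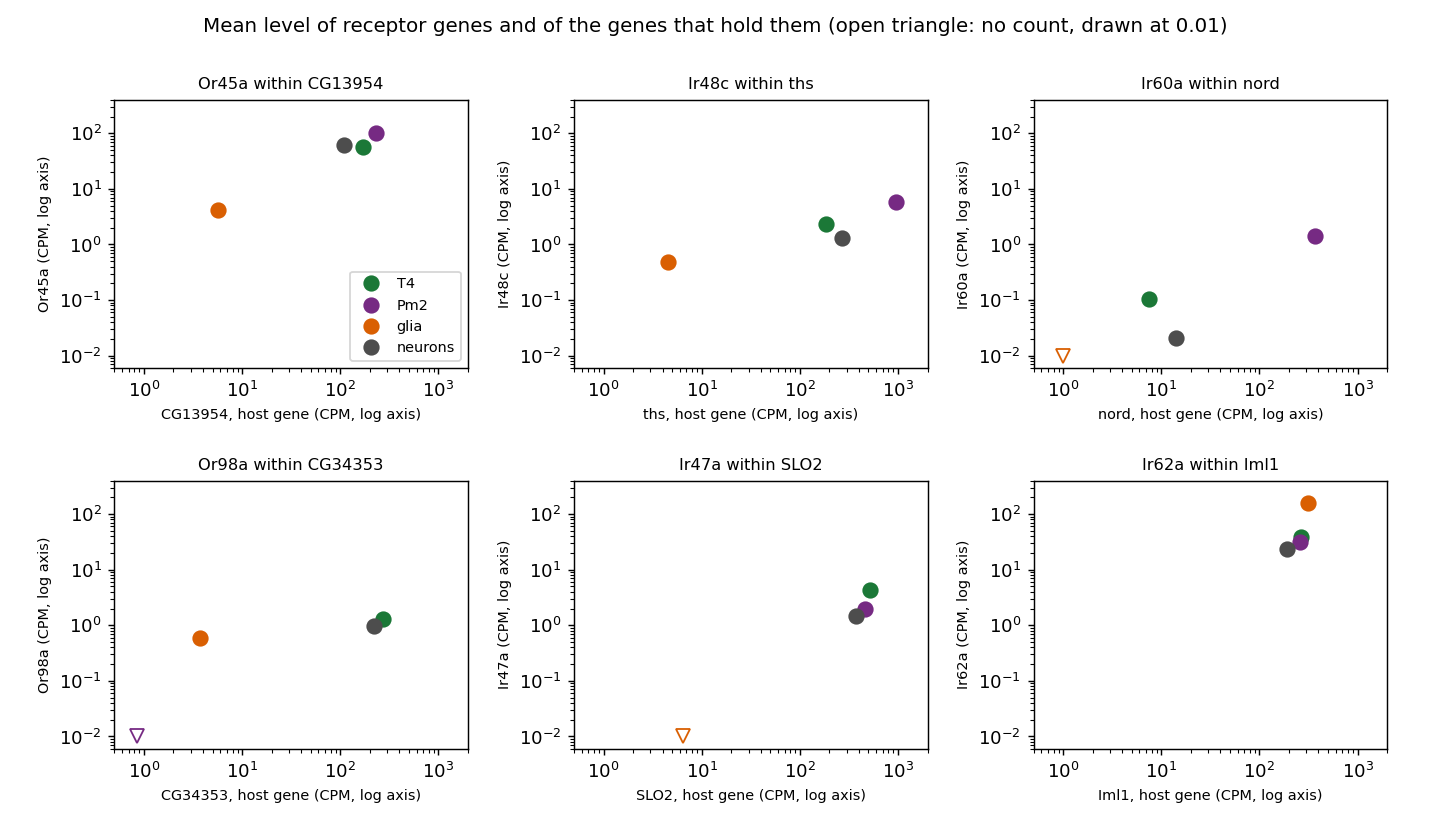
Mean level in CPM of 6 receptor genes (vertical, logarithmic) against the gene in whose intron each lies (horizontal, logarithmic), with 1 point per population and open triangles for no count. Glia lie at the lower left for Or45a, Ir48c, Ir60a and Ir47a, and Pm2 does for Or98a, while for Ir62a glia lie at the top.

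Genes within 1 kb differed in this respect. KaiR1D, a kainate-type glutamate receptor gene 242 bases from Ir93a on the same strand, was at 118 CPM in T4, 240 in Pm2, 2.72 in glia and 86.8 in neurons, the same order as Ir93a. The gene ppk3, 281 bases from Gr59e on the same strand, was at 0 CPM in T4, 0.173 in Pm2, 9.25 in glia and 0.00707 in neurons, again the order of the receptor. For Or63a, the gene within 1 kb was CG34025 on the other strand, at 5.07 CPM in T4, 9.4 in Pm2, 0.21 in glia and 5.44 in neurons, where Or63a itself was at 0 in T4 and 13.3 in neurons. CG2278, 125 bases from Or7a on the same strand, was at 53.8 CPM in T4, 69.2 in Pm2, 44.5 in glia and 46.4 in neurons, where Or7a was high in glia alone. Fie, 166 bases from Gr63a, was at 347 CPM in T4, 599 in Pm2, 127 in glia and 396 in neurons, lowest where Gr63a was highest. The 3 called genes that had no other gene within 1 kb were Or67d, Or69a and Or82a, with 6 of the 53 called differences.

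Other chemosensory gene lists gave a view of the pathway beyond the receptors. Of 50 odorant-binding protein genes, which encode small carriers of odours, 11 passed the filter. In glia 3 were higher and 6 lower than in neurons, where 30.9% of all genes were higher and 37.8% lower. Obp18a averaged 336 ± 128 CPM in glia and 1.29 ± 1.39 in neurons (edgeR adjusted p = 1.99e-05), and Obp44a was also among the 3. Obp83a, an antennal binding protein, was at 0.0775 ± 0.0912 CPM in T4, 8.13 ± 1.11 in Pm2, 0 in glia and 5.41 ± 1.65 in neurons, lower in T4 than in neurons (edgeR adjusted p = 0.00172). In T4 no binding protein was higher than in neurons and 3 were lower, and in Pm2 none was higher and 4 were lower. Over all genes 8.67% were higher and 14.5% lower in T4, and 15.5% and 20.1% in Pm2. T4 had 4 binding proteins higher and 1 lower than Pm2, where 18.0% and 18.4% of all genes were.

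Of 13 TRP channel genes, which include sensors of heat, touch and irritants, 10 passed the filter. The shares of all genes called in each comparison, just given, are the background for the counts that follow. T4 had 1 higher and 3 lower than neurons, Pm2 had 1 higher and 4 lower, glia had 4 higher and 3 lower, and T4 had 2 higher and 1 lower than Pm2. Of 31 ppk channel genes, which include salt and pheromone sensors, 15 passed, with 0 higher and 1 lower in T4 than in neurons, 3 and 2 in Pm2, 1 and 5 in glia, and 3 and 2 for T4 against Pm2. Of 20 CheA and CheB genes, linked to contact chemosensation, 9 passed, with 0 higher and 1 lower in T4, 0 and 1 in Pm2, 2 and 2 in glia, and 1 and 2 for T4 against Pm2. Both SNMP genes, which encode membrane proteins of pheromone sensing, passed the filter, and Snmp2 was called lower in Pm2 than in neurons and higher in T4 than in Pm2. Photoreceptor markers, which could mark retinal cells in a sort, summed to 5.83 to 9.62 CPM in T4, 3.09 to 5.72 in Pm2, 5.04 to 10.6 in glia and 20.6 to 22.7 in neurons over 9 genes, with ninaE, chp, Rh3 and Rh6 at 0 in T4. The sum was highest in neurons, as Or63a and Orco were, but not each marker. Rh5 was at 7.24 CPM in T4 and 5.84 in neurons, and glia exceeded neurons for ninaE (3.22 and 0.512 CPM), Rh4 (1.76 and 0.865) and Rh6 (0.321 and 0.0637). Fat body markers, over 5 genes, summed to 4.77 to 8.9 CPM in glia and 1.62 to 2.38 in neurons, with Yp3 called higher in glia. Haemocyte markers, over 3 genes, summed to 0.0967 to 14.7 CPM in glia and at most 0.849 in neurons, with none called. The part of all these marker genes in the results was not tested.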

How the data were processed

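The deposited table holds whole-number counts per gene made by the authors, in 12 columns; its name calls them normalized, but totals differ between libraries, so they were taken as counts. Per the submitters' processing notes, Trimmomatic 0.32, STAR 2.5.2 and HTSeq 0.6.1 were used with BDGP6; settings are not given in the sources used here. Per the labels, cDNA came from SMART-Seq v4, with paired reads of 100 bases. Columns of the Elav driver were assigned to the neurons as a group and are cited by column number.

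The fit held the 10528 genes that reached 10 counts in 3 or more libraries; all 12 libraries were fitted together in edgeR 4.0.16 under R 4.3.3 with TMM scaling and a two-sided quasi-likelihood F test. Calls needed an adjusted p (Benjamini-Hochberg, over every gene in the fit) under 0.05. CPM are counts per 1000000 of the TMM-adjusted total, and per kb divides by exon length in the Ensembl annotation of BDGP6, which also gave places; all 177 members matched by symbol. The procedure was tested on simulated counts. Equal replicate numbers did not deviate together (r from -0.0286 to 0.0247) and were not treated as pairs. Alternatives were other scalings, no filter and a filter of 100 counts, DESeq2 1.42.0, limma 3.58.1 (prior count 2), 6 libraries alone, leaving out each library, and restricted receptor sets. Members, lists and comparisons were chosen with earlier results of these data known. Genes named were those of known role, the 10 of highest level per population and those called, the 10 of lowest adjusted p in full.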

Additional observations from a re-analysis of the deposited data

How the results depend on the processing

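Directions did not reverse for any of the 53 called differences. Of these, 35 passed under every alternative that could be fitted and 18 failed under at least 1. Over the 33 genes called in at least 1 comparison and with all libraries kept, 336 of 347 recomputed differences stayed called and 11 did not, while 26 uncalled ones of the same genes passed; with 1 library left out, 234 of 300 stayed called, 66 did not and 6 passed. The number of receptor genes called for T4 against neurons was 5, against 11 with DESeq2, 10 with limma, 2 over genes that overlap or lie in no other gene and 0 over genes with no other gene within 1 kb. For Pm2 against neurons the number was 9, against 4 with a filter of 100 counts, 14 among the 6 libraries compared and 2 with no other gene within 1 kb. For glia against neurons 28 became 18 with the filter of 100 counts, 14 without overlapped or enclosed genes and 2 with no gene within 1 kb. For T4 against Pm2 11 became 4 with that filter, 19 among 6 libraries, 2 with no gene within 1 kb and 10 with the replicate block, which changed the call of Gr63a (adjusted p = 0.0702), Or13a (0.0612) and Ir93a (0.0496). Leaving out 1 library gave 2 to 3 for T4 against neurons, 5 to 9 for Pm2 against neurons, 25 to 31 for glia against neurons and 4 to 8 for T4 against Pm2. Receptor genes counted in all 3 libraries became 17 in T4, 16 in Pm2, 12 in glia and 23 in neurons without overlapped or enclosed genes, and 3, 3, 1 and 5 with no gene within 1 kb. In neurons 25 of 45 had at least 10 counts in each library, in glia 32 had a count in at least 2, and a count in any neuron library was found for 77 instead of 125 genes without neurons replicate 2. With 1 library left out, the genes counted in all that remained were 39 to 44 in T4, 40 to 48 in Pm2, 24 to 26 in glia and 48 to 59 in neurons. The restriction to genes with no gene within 1 kb and the omission of that neuron library were chosen after seeing the data. Restricting the set leaves fewer genes by construction. Leaving out 1 library did so in part. Gr64a and Or69a fell under the filter without any 1 Pm2 replicate, and Or19b and Gr59f without any 1 glial replicate. The cause of the other changes was not tested.

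Scaling by library totals changed no count of receptor calls, but moved the median log2 difference of all genes to -0.52 for glia against neurons, and the share of higher calls for T4 against Pm2 to 61.1% over all genes, where TMM gave -0.17 and 49.4%. Depth limits the rest: 87 receptor genes with a count were too sparse to test.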
